A study of Mus musculus with 15 samples.

Results

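The 33 genes described here are interferon-stimulated genes, the set of transcripts that cells switch on after interferons bind their receptors. They were chosen by name, as the non-control probes of the arrays whose gene name was one of the 33 symbols, which gave 44 probes of 55681, and 33 genes of the 22262 named genes measured. All 33 genes had a usable probe. Transcript levels came from 15 one-colour microarrays of mouse lung cells, each carrying RNA of a single sample. The groups were primary alveolar type II (ATII) cells given 1 mM β-aminopropionitrile (BAPN) for 24 h (4 arrays), ATII cells given vehicle, phosphate-buffered saline, for 24 h (4 arrays), primary lung fibroblasts given 1 mM BAPN for 24 h (3 arrays), and fibroblasts given vehicle for 24 h (4 arrays). The array called ATII BAPN replicate 5 was labelled as a replacement without a number, and a fibroblast BAPN replicate 3 was not analysed here. Fibroblasts had been passaged at least 3 times and were starved for 24 h before treatment. ATII cells had formed a monolayer over 3 days of air-liquid interface culture. BAPN inhibits the lysyl oxidases, which cross-link collagen and elastin, and the design asks whether it alters transcript levels in either cell type. The labels name no interferon treatment. Nothing in the labels tells whether the replicates are separate animals or cultures, and p-values therefore reflect only the variation among these samples, possibly technical. In the comparisons of ATII cells with fibroblasts, the cell type and the way it was cultured cannot be told apart.

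Type I and type III interferons signal through the kinases Jak1 and Tyk2 to a complex that holds Stat2 and Irf9 and binds interferon-stimulated response elements (ISRE) in promoters. Interferon gamma acts on promoters that hold gamma-activated sites (GAS), and raises Irf1. The induced proteins include sensors of viral RNA, enzymes that degrade or block it, and regulators such as Usp18 that damp the signal, and many of these genes are also transcribed at a low level without infection. In the lung both the epithelium and the mesenchyme can mount this response.

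A table of RefSeq promoters (GRCm38.p6, from 250 bases before to 50 bases after the start of transcription) held 25 of the 33 genes. The ISRE core searched was GAAA, any 2 bases and GAAA again, on either strand. It was present in the promoters of 12 of these 25 genes, against 3.99% of 27025 genes in the table. The GAS core searched was TTC, any 3 bases and GAA, which reads the same on both strands, and was present in 7 of the 25 genes, against 9.55% of all genes. A match is a description of these letters and not evidence of binding. The windows below are shown because they belong to the genes on which the results turn. Each is written 5′ to 3′ along its gene's strand, with up to 25 bases on either side of the match and no base past the start of transcription. Capitals mark the ISRE core, as its reverse complement where the match is on the other strand, and for Irf1 the GAS core.
Isg15: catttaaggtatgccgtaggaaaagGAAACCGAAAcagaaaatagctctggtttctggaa
Ifit1: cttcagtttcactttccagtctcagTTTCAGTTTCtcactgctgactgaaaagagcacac
Ifit3: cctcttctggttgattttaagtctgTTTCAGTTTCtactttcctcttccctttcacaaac
Rsad2: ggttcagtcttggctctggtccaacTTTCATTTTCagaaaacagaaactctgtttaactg
Gbp2: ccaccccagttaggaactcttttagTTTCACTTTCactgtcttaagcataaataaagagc
Oas1a: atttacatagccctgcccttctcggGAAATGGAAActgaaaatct
Irf1: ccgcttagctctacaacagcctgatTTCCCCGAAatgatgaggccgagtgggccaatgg
The Isg15 window is chr4:156200856-156200915 on the minus strand. The Ifit1 window is chr19:34640779-34640838 on the plus strand. The Ifit3 window is chr19:34583382-34583441 on the plus strand. The Rsad2 window is chr12:26456538-26456597 on the minus strand. The Gbp2 window is chr3:142620579-142620638 on the plus strand. The Oas1a window is chr5:120907526-120907570 on the minus strand. The Irf1 window is chr11:53769899-53769957 on the plus strand. In Isg15 this match overlaps 2 further ISRE core matches and in Oas1a it overlaps 1, and Ifit1 and Ifit3 hold 2 matches each.

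On each array 65.2% to 71.2% of the non-control spots exceeded background clearly, by the scanner's flag, and the number of arrays limits the precision. The surfactant gene Sftpc and the lung epithelial factor Nkx2-1 were well above background on all ATII vehicle arrays and on 0 of 4 fibroblast vehicle arrays, while the ATII marker Slc34a2 was above background on none. Of the 10 ATII markers, 8 were above background on all vehicle ATII arrays. On the vehicle fibroblast arrays 5 of the 10 were above background on all and 5 on none. Of 6 epithelial markers, 6 were above background on all vehicle ATII arrays and 4 on all vehicle fibroblast arrays. All 10 fibroblast markers were above background in both cell types, and the collagen gene Col1a1 had a mean level of 7.63 in vehicle ATII cells and 7.59 in vehicle fibroblasts. Here and below, a level is a log2 intensity from which the 75th percentile of its array was subtracted. Macrophage and leukocyte markers were also present, and all 15 were above background on all vehicle fibroblast arrays. Their summed linear level was 30.0 to 46.4 in vehicle ATII cells and 71.6 to 87.3 in vehicle fibroblasts. Fewer cells of a type and less RNA per cell cannot be told apart in such bulk samples.

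Of the 33 genes, 27 were well above background on all 15 arrays. The signals of different probes cannot be compared as amounts of transcript, and the order that follows says only which probes were near background. The lowest mean signals belonged to Mx1 and Mx2, dynamin-like GTPases that block viruses, to Rsad2 (viperin), an enzyme that makes a chain-terminating nucleotide, and to Cmpk2, a mitochondrial nucleotide kinase. Mx1 was well above background on 0 of 3 BAPN and 1 of 4 vehicle fibroblast arrays, and on 3 of 4 arrays of each ATII group. The highest mean signals belonged to Isg20, an exonuclease, Irf1, a transcription factor, Ddx58 (RIG-I), a sensor of viral RNA, and Bst2 (tetherin), which holds budding virus at the membrane. Mx1 and Mx2 are annotated as transcribed pseudogenes in the RefSeq table.

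In fibroblasts no interferon-stimulated gene, read by the probe that stood for it, passed the test for a change with BAPN. By limma with Benjamini-Hochberg adjustment over all 32247 features tested, 0 of the 32 genes tested had an adjusted p under 0.05, where 13.8% of all features did (1.98% higher and 11.8% lower), and 4 had an unadjusted p under 0.05. Changes between the groups ran from -2.66 to 1.05 on the log2 scale, with a median of 0.03, beside 0.00 over all features. In 18 genes the change was above 0 and in 14 below. The median depended on single arrays, with -0.16 without vehicle replicate 3 and 0.21 without BAPN replicate 4. All features had medians of -0.0002 and -0.02 there. With the replicate number as a block the median of the genes was also -0.16, beside -0.0005 over all features. Vehicle replicate 3 shares its number with no BAPN array here, and the split of 18 and 14 genes includes it. With every probe as a feature 1 call appeared, the second probe of Oas1a at -0.70 (adjusted p = 0.016), where the probe that stood for Oas1a gave -0.02. The 95% interval lay inside 2-fold in either direction for 16 of the 32 genes, against 60.7% of all features. For the other 16 the interval reached past 2-fold.

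The 4 genes with an unadjusted p under 0.05 were Rsad2, Irf1, Mx2 and Dhx58. Rsad2 had levels of -7.49, -5.13 and -7.47 in BAPN fibroblasts, against -3.49, -2.32, -5.80 and -4.53 in vehicle fibroblasts. The highest BAPN array lay within the vehicle range and the other two below it. The change was -2.66 (SE 0.84, adjusted p = 0.0522), and Rsad2 was well above background on 1 of 3 BAPN and 3 of 4 vehicle arrays. In 13 of 17 alternatives it did not pass the threshold either, and with normexp background correction the change was -0.73. It passed in the other 4, with the slide as a block (-2.84, adjusted p = 0.0287), with a correction for spot position (-3.49, adjusted p = 0.0288), without vehicle replicate 3 (-3.25, adjusted p = 0.0258) and without BAPN replicate 2 (-3.45, adjusted p = 0.0455). On slide 2 alone it was -2.88 (adjusted p = 0.148). Irf1 had levels of 2.09, 1.83 and 1.81 in BAPN fibroblasts, against 1.64, 1.51, 1.31 and 1.56 in vehicle fibroblasts. It was the only one of the 32 genes whose groups did not overlap, where 24.0% of all features did not, and its change was 0.40 (SE 0.13, adjusted p = 0.060). The second Irf1 probe was well above background on none of the arrays, and the mean over both probes gave a change of -0.36.

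Dhx58 (LGP2), a regulator of the RNA sensors, had levels of -3.44, -3.45 and -0.88 in BAPN fibroblasts, against -3.27, -3.20, -4.25 and -3.85 in vehicle fibroblasts. BAPN replicate 4 stood apart from all other fibroblast arrays. The change was 1.05 (SE 0.49, adjusted p = 0.184), and without that array it was 0.20 (adjusted p = 0.673). Mx2 differed by -1.61 (SE 0.74, adjusted p = 0.181), with levels of -4.61, -4.64 and -7.13 in BAPN fibroblasts and -3.13, -2.41, -5.54 and -4.32 in vehicle fibroblasts. It was well above background on 2 of 3 BAPN and 3 of 4 vehicle fibroblast arrays, so the size of this change is uncertain. Isg15, a ubiquitin-like modifier, had a change of -0.10 (95% interval -1.23 to 1.04), and Gbp2, a guanylate-binding GTPase, one of 0.00 (95% interval -0.47 to 0.47). Ifit1, Oasl1, Usp18 and Ifit3 were at -1.26, -0.91, -0.59 and -0.54, none past the threshold.

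**Figure D1:**
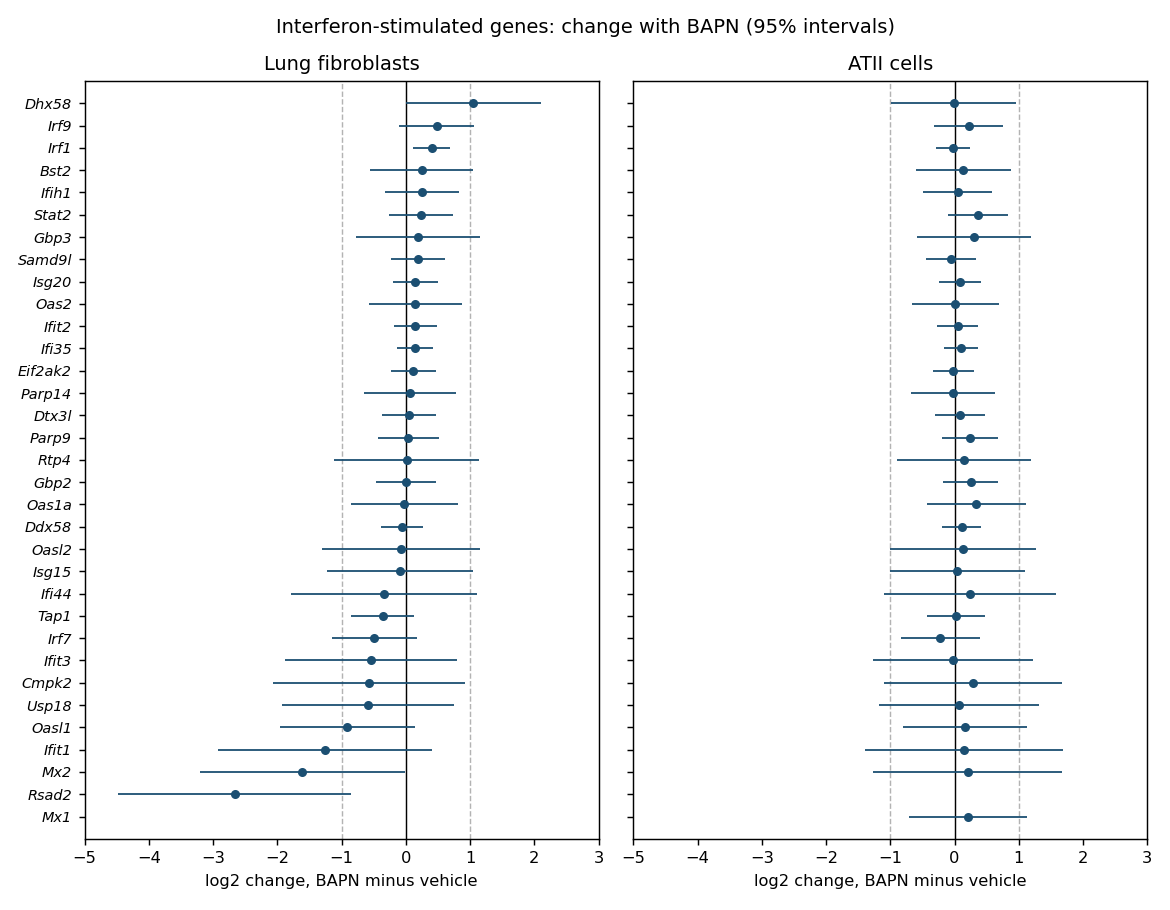
Log2 change of each gene with BAPN (BAPN minus vehicle, x axis) in fibroblasts (left) and ATII cells (right), with 95% intervals from limma; dashed lines mark 2-fold. In fibroblasts the changes run from -2.66 for Rsad2 to 1.05 for Dhx58, and in ATII cells from -0.22 to 0.36; Mx1 in fibroblasts and Rsad2 in ATII cells were not tested.

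In fibroblasts the genes were high or low together from array to array within a group. Among the 27 genes above background on all arrays, BAPN replicates 1 and 2 lay above their group mean for 21 and 22 genes and BAPN replicate 4 for 3 genes. Vehicle replicates 1 and 2 lay above their group mean for 25 and 24 genes, replicate 3 for 1 gene and replicate 4 for 11 genes. BAPN replicate 4 was the lowest of its group for 24 of the 27 genes, where it was the lowest for 31.3% of all features above background. Vehicle replicate 3 was the lowest of its group for 25 of the 27 genes, where it was the lowest for 22.2% of all such features. Median deviations from the group mean were 0.20, 0.22 and -0.44 in BAPN replicates 1, 2 and 4, and 0.37, 0.31, -0.56 and -0.11 in vehicle replicates 1 to 4, while the median over all features stayed between -0.03 and 0.06. This is a description of these 7 arrays, without a test.

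Isg15 shows the pattern gene by gene. Its levels were 2.58, 2.60 and 0.85 in BAPN fibroblasts, against 3.04, 2.74, 0.98 and 1.66 in vehicle fibroblasts. The lowest levels were in BAPN replicate 4 and vehicle replicate 3, vehicle replicate 4 lay between, and the groups overlapped. Rtp4, a chaperone of receptor transport, was likewise lowest in BAPN replicate 4 and vehicle replicate 3, with 0.01, -0.08 and -1.61 in BAPN fibroblasts and 0.34, 0.23, -2.15 and -0.71 in vehicle fibroblasts. Usp18, the protease that removes Isg15 from proteins and damps receptor signalling, had -1.79, -1.68 and -3.27 in BAPN fibroblasts and -0.08, -1.12, -3.56 and -1.87 in vehicle fibroblasts. Within the 4 vehicle arrays alone, Usp18 spanned 11.2-fold, Ifit1 11.6-fold, Ifit3 9.14-fold and Oasl2 8.39-fold. Ifit2 and Irf1 spanned 1.46-fold and 1.26-fold, and Ifi35, a partner of the signalling factor Nmi, 1.21-fold.

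The arrays with low levels were on both slides. Vehicle replicate 3 was on slide 1 with vehicle replicate 1 and BAPN replicate 1, and BAPN replicate 4 was on slide 2 with vehicle replicates 2 and 4 and BAPN replicate 2. Within slide 1 the median change with BAPN over the genes tested was 0.36, and within slide 2 it was -0.27, where all features had medians of -0.12 and -0.01. On slide 1 the vehicle side held a low array, and on slide 2 the BAPN side did. The macrophage and leukocyte markers did not follow this order of arrays. Their 12 members above background everywhere were highest in replicate 2 of both groups, with mean levels of 0.33, 1.28 and 0.51 in BAPN replicates 1, 2 and 4 and of 0.50, 1.25, 0.49 and 0.66 in vehicle replicates 1 to 4. The 10 fibroblast markers had mean levels of 4.77, 3.99 and 4.48 in BAPN replicates 1, 2 and 4 and of 4.46, 3.95, 4.34 and 4.33 in vehicle replicates 1 to 4. Their part in the order of the interferon-stimulated genes was not tested. A separate list of interferon-stimulated genes (54 genes above background everywhere, among them the interferon-inducible GTPases and immunoproteasome subunits) had median deviations of 0.15, 0.01 and -0.13 in BAPN replicates 1, 2 and 4 and of 0.16, 0.03, -0.26 and 0.08 in vehicle replicates 1 to 4.

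**Figure D2:**
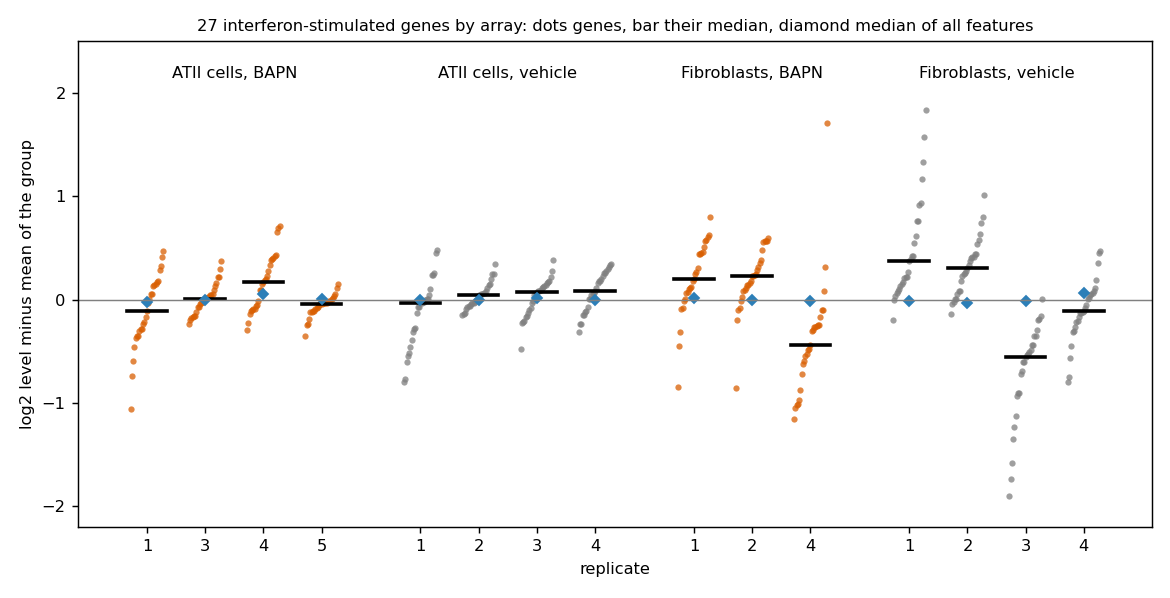
Deviation of 27 interferon-stimulated genes from the mean of their group (y axis, log2) on each array (x axis, by group and replicate); dots are genes, bars their median, diamonds the median of all features. BAPN replicate 4 and vehicle replicate 3 of the fibroblasts lie low, with medians of -0.44 and -0.56, while the ATII medians lie between -0.11 and 0.17.

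ATII cells showed less of this variation. Replicate 1 was the lowest of its group for 13 of the 27 genes in BAPN ATII cells and for 12 in vehicle ATII cells. It was the lowest there for 32.5% and 30.5% of all features above background. In the separate list of 54 genes it was the lowest for 27 with BAPN and 29 with vehicle. Its median deviations over that list were -0.08 with BAPN and -0.11 with vehicle. The median SD of the 27 genes was 0.24 in BAPN ATII cells and 0.20 in vehicle ATII cells, where all features had medians of 0.19 and 0.16. In fibroblasts it was 0.41 with BAPN and 0.50 with vehicle, where all features had medians of 0.23 and 0.21. Each ATII array lay above its group mean for between 6 and 19 of the 27 genes. Of the 27 genes, the 10 with an ISRE core in the promoter had a median SD of 0.22 in vehicle ATII cells and 0.60 in vehicle fibroblasts, and the 11 without one 0.18 in vehicle ATII cells and 0.35 in vehicle fibroblasts. For the GAS core the order was the other way. The 7 genes with it had 0.15 in vehicle ATII cells and 0.20 in vehicle fibroblasts, and the 14 without it 0.22 and 0.48. Neither split was tested.

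**Figure D3:**
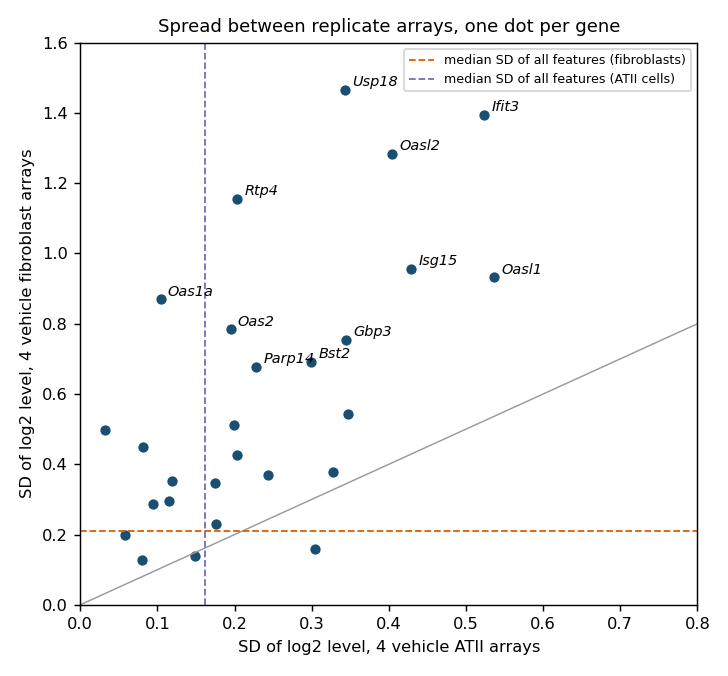
SD of the log2 level over the 4 vehicle ATII arrays (x axis) and over the 4 vehicle fibroblast arrays (y axis) for 27 interferon-stimulated genes, with the line of equality and the median SD of all features (dashed, 0.16 and 0.21). Usp18 and Ifit3 lie highest, and most genes lie above the line.

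In ATII cells no gene passed the test for a change with BAPN either. By limma, of the 32 tested, 0 had an adjusted p under 0.05, where 0% of all features did, and 0 had an unadjusted p under 0.05. Changes ran from -0.22 for Irf7, the factor that amplifies type I interferon production, to 0.36 for Stat2, with a median of 0.10, beside 0.00 over all features. In 25 genes the change was above 0 and in 7 below, where 49.5% of all features were above 0, and 0 genes had groups that did not overlap, against 9.31% of all features. The 95% interval lay inside 2-fold for 19 of the 32 genes, against 69.8% of all features. Isg15 had levels of 0.44, 1.08, 1.69 and 0.92 in BAPN ATII cells, against 0.45, 0.85, 1.38 and 1.29 in vehicle ATII cells, and the groups overlapped. Irf1 had a mean of 2.95 ± 0.18 in BAPN ATII cells and 2.98 ± 0.15 in vehicle ATII cells (SD, n = 4 each), with a change of -0.03 (95% interval -0.29 to 0.24). Rsad2 was above background on 2 of 4 BAPN and 0 of 4 vehicle ATII arrays and was not tested.

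The BAPN effect was then compared between the cell types, as the ATII effect minus the fibroblast effect. By limma, 0 of 33 genes had an adjusted p under 0.05, as had 0% of all features, and 2 had an unadjusted p under 0.05. These were Irf1, with a difference of -0.43 (SE 0.18, adjusted p = 0.319), and Rsad2 (adjusted p = 0.178), whose fitted difference ran from 1.19 to 5.32 over its alternatives. Rsad2 has no settled size here, since it was well above background on 2 of 4 BAPN and 0 of 4 vehicle ATII arrays and on 1 of 3 BAPN and 3 of 4 vehicle fibroblast arrays, with levels of -6.22, -5.44, -3.76 and -4.04 in BAPN ATII cells and -6.90, -6.95, -6.67 and -5.45 in vehicle ATII cells. For the other 31 genes the difference ran from -1.07 to 1.81.

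The cell types themselves differed more than the treatments. In vehicle, 20 of the 33 genes (60.6%) differed between ATII cells and fibroblasts by limma at an adjusted p under 0.05, where 31.7% of all features did. Of these 11 were higher in ATII cells, where 13.7% of all features were, and 9 were lower, where 18.0% were. Groups did not overlap for 18 of the 33 genes, where 35.4% of all features did not. The median change was -0.25, beside -0.16 over all features, and the genes lay on both sides of 0: Oasl1, Oasl2, Oas1a, Parp14 and Parp9 were among the higher ones, and Ifit1, Ifit2 and Ifit3 among the lower ones. With quantile normalization, which moved the median of all features to -0.02, 17 genes passed, 11 higher and 6 lower. On slide 1 alone 7 genes passed, where 21.9% of all features did, and on slide 2 alone 10 did, where 16.7% of all features did. Mx1 among the higher and Rsad2 among the lower genes met the filter on background only through the cell type with the higher signal. Without that filter the count was also 20, where 21.9% of all features were called. All features include probes without a gene name, each counted on its own. Among features above background on every array of a group, 18 of the genes passed, where 35.0% of all such features did.

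The oligoadenylate synthetase family held the gene with the largest rise among the 33. Oasl1, an oligoadenylate synthetase-like protein that in mouse represses the translation of Irf7, had levels of 0.65, 1.69, 1.67 and 1.79 in vehicle ATII cells, against -0.46, -1.32, -2.54 and -2.19 in vehicle fibroblasts. The groups did not overlap, and Oasl1 was 8.44-fold higher in ATII cells (log2 3.08, SE 0.45, adjusted p = 0.000137). Its neighbour on chromosome 5, Oasl2, rose by 2.18 (SE 0.53, adjusted p = 0.00605). Oas1a, which makes the activator of the nuclease RNase L, had levels of 0.15, -0.01, 0.23 and 0.20 in vehicle ATII cells, against -1.44, -0.73, -2.71 and -1.03 in vehicle fibroblasts, and rose by 1.62 (adjusted p = 0.00311). Its probe is also annotated to a near-identical gene of the cluster, Oas1g, and a second Oas1a probe gave 0.37 (adjusted p = 0.0748), so the size for Oas1a is uncertain. Oas2 did not pass the test, at -0.66 (adjusted p = 0.133).

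The 3 neighbours on chromosome 16, Parp14, Dtx3l and Parp9, were higher in ATII cells together. Parp14, an ADP-ribosyltransferase, had levels of 1.22, 1.07, 0.83 and 0.72 in vehicle ATII cells, against -0.15, -0.36, -1.67 and -0.89 in vehicle fibroblasts, and rose by 1.72 (SE 0.31, adjusted p = 0.000657). Dtx3l, a ubiquitin ligase, rose by 1.45 (SE 0.18, adjusted p = 3.47e-05), and its partner Parp9 rose by 0.95 (SE 0.20, adjusted p = 0.00276). The 3 probes of Dtx3l gave 1.45, 1.12 and 1.01, while the second probe of Parp9 gave 0.35 (adjusted p = 0.424). None of the 3 had overlapping groups.

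Among the regulators, Irf1 had levels of 3.08, 3.14, 2.88 and 2.83 in vehicle ATII cells, against 1.64, 1.51, 1.31 and 1.56 in vehicle fibroblasts. Every ATII array lay above every fibroblast array, and Irf1 was 2.78-fold higher (SE 0.12 on the log2 scale, adjusted p = 8.64e-07). Usp18 had levels of 0.93, 0.45, 0.30 and 0.14 in vehicle ATII cells, all above its fibroblast levels given before, and rose by 2.12 (SE 0.58, adjusted p = 0.0121). The level of Usp18 in the highest vehicle fibroblast array, replicate 1, was -0.08, close to the lowest ATII array. Irf7 was lower in ATII cells (-0.99, adjusted p = 0.0171), with overlapping groups, and this call was lost in 8 of 20 alternatives, among them quantile normalization, the deposited series table, the correction for spot position and each slide alone (adjusted p up to 0.166). Stat2 and Irf9, which belong to the transcription complex, did not pass, at -0.18 (95% interval -0.65 to 0.28) and -0.22 (95% interval -0.77 to 0.32).

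The Ifit genes, which bind foreign RNA and stop its translation, were lower in ATII cells for all 3 members measured here. Ifit2 had levels of -2.78, -2.69, -2.97 and -2.55 in vehicle ATII cells, against -0.65, -0.51, -0.73 and -1.05 in vehicle fibroblasts. The groups were far apart and the spread within each was small, with a change of -2.01 (SE 0.15, adjusted p = 2.45e-07). Ifit1 fell by 2.24 (SE 0.71, adjusted p = 0.0282) and Ifit3 fell by 2.49 (SE 0.58, adjusted p = 0.00437). Ifit1 had levels of -5.54, -5.16, -4.79 and -4.43 in vehicle ATII cells, against -0.81, -1.60, -4.35 and -4.20 in vehicle fibroblasts, so 2 of its fibroblast arrays were close to the ATII arrays. All 3 lie near each other on chromosome 19, and the Ifit3 probe may also detect the near-identical copy Ifit3b. The call of Ifit1 was lost in 10 of 20 alternatives (adjusted p up to 0.212). These were quantile normalization, the deposited series table, the replicate block, a fit of the compared groups only, each slide alone, and the fits without fibroblast vehicle replicate 1 (-1.60, adjusted p = 0.0823) or 2 (-1.86, adjusted p = 0.0859) and without ATII vehicle replicate 1 (-2.05, adjusted p = 0.0718) or 2 (-2.18, adjusted p = 0.0623).

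Gbp2 had levels of -1.25, -0.88, -0.95 and -0.66 in vehicle ATII cells, against 1.19, 1.26, 0.48 and 0.76 in vehicle fibroblasts. It was lower in ATII cells by 3.62-fold (log2 -1.85, SE 0.20, adjusted p = 1.01e-05) with no overlap. Its near neighbour on chromosome 3, Gbp3, was at -0.93 (adjusted p = 0.107). Tap1, the peptide transporter of antigen presentation, whose probe had 10 spots, fell by 1.07 (SE 0.21, adjusted p = 0.00141), and Eif2ak2 (PKR), the kinase that halts translation on double-stranded RNA, fell by 0.49 (SE 0.15, adjusted p = 0.0234). Ifi35 fell by 0.46 (adjusted p = 0.0109). Rsad2 was well above background on none of the vehicle ATII arrays and on 3 of 4 vehicle fibroblast arrays. Its difference in means is therefore a bound set by background, at least 2.76-fold lower in ATII cells (adjusted p = 0.027 by limma). This bound leaves out the spread between arrays. The groups overlapped, with -5.80 in vehicle fibroblast replicate 3 and -5.45 in vehicle ATII replicate 4. Rsad2 met the filter on background only through the fibroblast arrays, so this p-value is no added support for the difference. The call of Rsad2 was lost with quantile normalization, in the deposited series table, and without ATII vehicle replicate 1, 2 or 3 (adjusted p = 0.0643, 0.0678 and 0.0564). Its neighbour on chromosome 12, Cmpk2, did not pass (-0.66, adjusted p = 0.492).

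Among the sensors, Ifih1 (MDA5) was higher in ATII cells by 0.80 (SE 0.25, adjusted p = 0.0244), Ddx58 was at -0.25 (adjusted p = 0.203) and Dhx58 at -0.90 (adjusted p = 0.154). Samd9l, a restriction factor, rose by 0.54 (adjusted p = 0.032). Mx1 was well above background on 3 of 4 vehicle ATII and 1 of 4 vehicle fibroblast arrays, and its fitted change of 1.74 (SE 0.43, adjusted p = 0.00679), with overlapping groups, rests on levels near background. With normexp background correction it was 0.35, and there and on slide 2 alone the call was lost. Its near neighbour Mx2 was at -1.40 (adjusted p = 0.144). Isg15, Bst2, Isg20, Rtp4 and Ifi44 did not pass, with changes of -1.11, -0.76, -0.12, 0.14 and 1.00. For Isg15 the second probe gave -1.35, also short of the threshold (adjusted p = 0.0987).

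**Figure D4:**
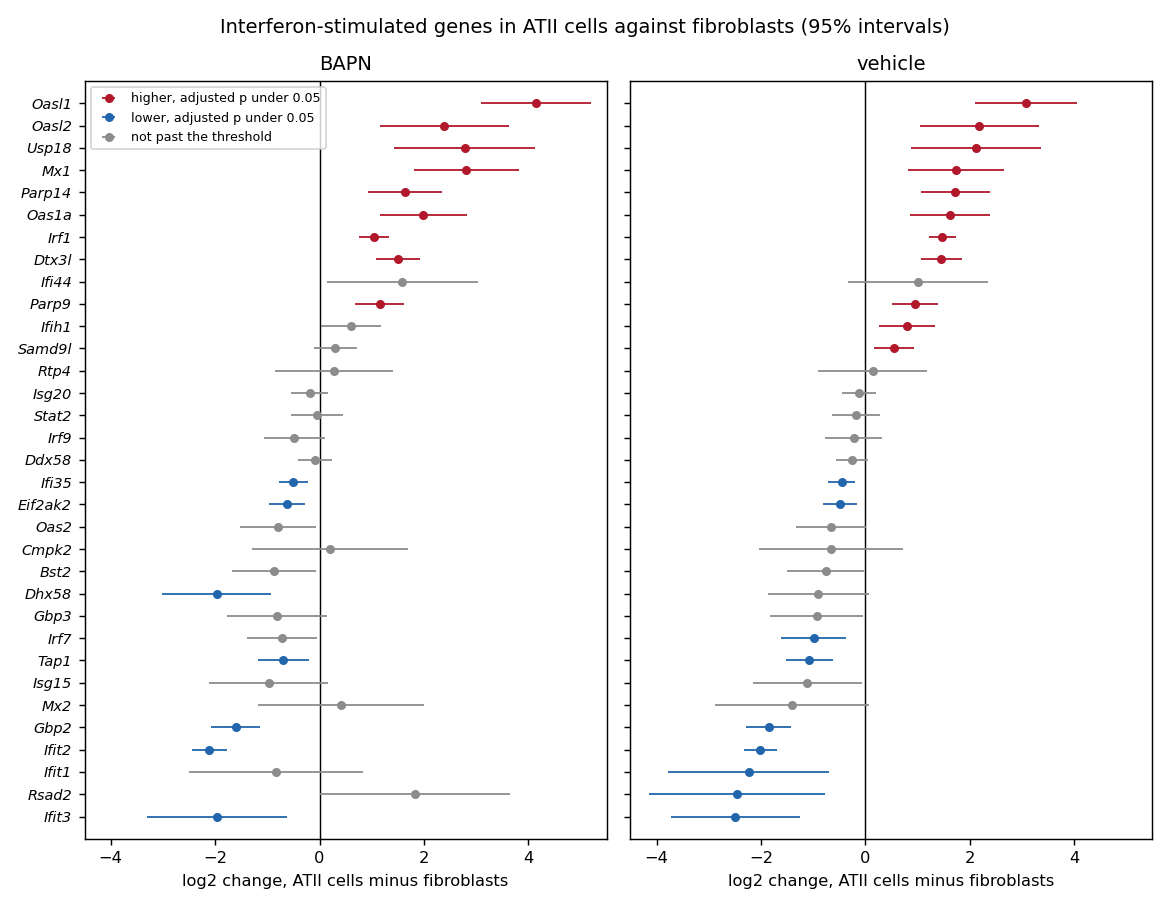
Log2 change of each gene between cell types (ATII cells minus fibroblasts, x axis) in BAPN (left) and vehicle (right), with 95% intervals from limma; red and blue mark genes higher or lower at an adjusted p under 0.05, and gray those not past it. Oasl1 lies at the top with 4.15 in BAPN and 3.08 in vehicle, and Ifit2 lies at -2.11 in BAPN and -2.01 in vehicle.

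Under BAPN the same comparison of cell types, on other arrays, called 16 of the 33 genes (48.5%), where 29.4% of all features were called. Of these 9 were higher in ATII cells, where 13.2% of all features were, and 7 were lower, where 16.2% were. Groups did not overlap for 17 genes, where 34.1% of all features did not. All 9 higher genes were among the 11 higher in vehicle. Of the 7 lower genes, 6 were among the 9 lower in vehicle, and 0 genes were called in opposite directions. The lower calls were the less stable ones. With the replicate number as a block 11 genes were higher and 2 lower, where 21.5% of all features were called. In a fit of the compared groups only, 9 were higher and 4 lower, where 22.3% of all features were called. On slide 1 alone, with 1 BAPN fibroblast array, 8 genes passed, where 26.6% of all features did, and on slide 2 alone, with 1 BAPN ATII array, 5 did, where 6.57% of all features did. Oasl1 had levels of 0.87, 1.91, 2.01 and 1.64 in BAPN ATII cells, against -1.93, -2.43 and -3.26 in BAPN fibroblasts, and was 17.7-fold higher (log2 4.15, SE 0.49, adjusted p = 2.44e-05). Usp18 rose by 2.78 (SE 0.62, adjusted p = 0.00407), Oasl2 by 2.39 (adjusted p = 0.00626), Oas1a by 1.99 (adjusted p = 0.00147) and Parp14 by 1.63 (adjusted p = 0.002).

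Mx1 was well above background on none of the BAPN fibroblast arrays. Its mean was at least 1.60-fold higher in BAPN ATII cells (adjusted p = 0.000432 by limma). This bound also leaves out the spread between arrays. Mx1 met the filter on background only through the ATII arrays, so its p-value is no added support for the difference. Without that filter 15 genes passed, where 19.4% of all features did. Ifit2 fell by 2.11 (SE 0.16, adjusted p = 3.79e-07), Ifit3 by 1.97 (adjusted p = 0.0289) and Gbp2 by 1.60 (adjusted p = 8.42e-05). Dhx58 was the lower gene of this comparison that was not called in vehicle, at -1.97 (adjusted p = 0.00746), and without fibroblast BAPN replicate 4 it was -1.12 (adjusted p = 0.00459). Ifit1 was at -0.83 (adjusted p = 0.48) and Rsad2 at 1.83 (adjusted p = 0.125), both with overlapping groups.

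**Figure D5:**
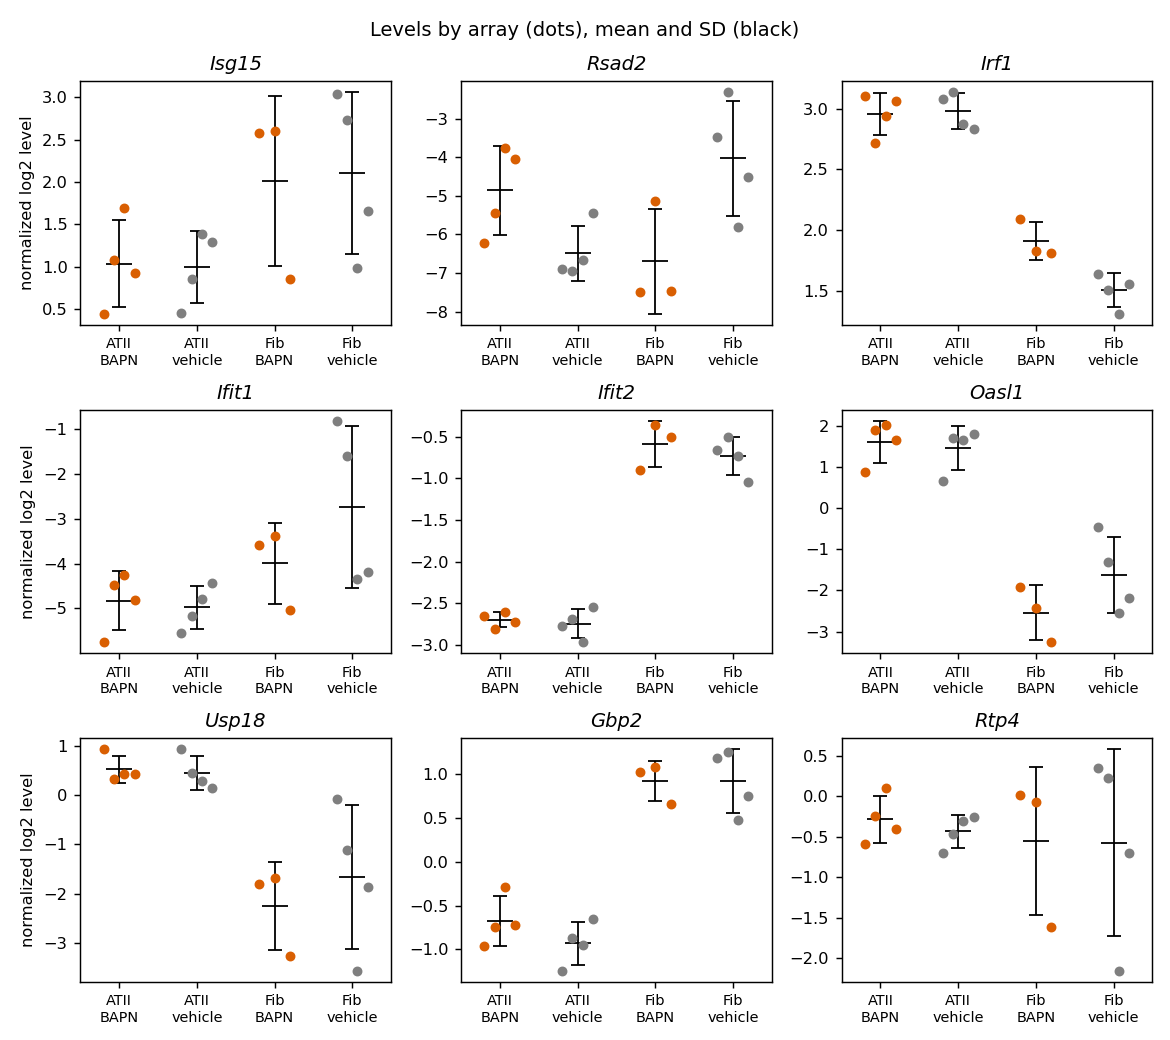
Normalized log2 level (y axis) of 9 interferon-stimulated genes on each array, with mean and SD in black; BAPN arrays are orange and vehicle arrays gray, ATII cells on the left of each panel and fibroblasts (Fib) on the right. Isg15, Usp18 and Rtp4 vary among the fibroblast arrays of both treatments and are lowest in BAPN replicate 4 and vehicle replicate 3. Ifit2 and Gbp2 lie lower in ATII cells, and Irf1 and Oasl1 lie higher.

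The genes around this response were counted from separate lists. In fibroblasts 5 of 11 interferon ligands tested were lower with BAPN, where 11.8% of all features were lower. Ifna1 fell by 0.86 (SE 0.13, adjusted p = 0.00547) and Ifna14 fell by 0.85 (SE 0.12, adjusted p = 0.00547), with means of -2.63 and -2.36 in BAPN fibroblasts and of -1.77 and -1.51 in vehicle fibroblasts. Ifnl3, a type III interferon, fell by 0.89 (adjusted p = 0.021), and Ifna13 and Ifnab by 1.26 (adjusted p = 0.0477) and 0.81 (adjusted p = 0.0126). With the replicate number as a block 0 of 32247 features passed, and so none of the 5 calls remained (adjusted p from 0.106 for Ifna1 and Ifna14 to 0.147 for Ifna13). That loss is not particular to the ligands. With the mean over all probes of a gene Ifnab was at -0.40 (adjusted p = 0.413) and Ifnl3 at -0.20 (adjusted p = 0.70). With a correction for spot position Ifna13 and Ifnab were at -0.53 (adjusted p = 0.241) and -0.41 (adjusted p = 0.107). Among the markers of other cells, 2 of 6 lymphocyte markers tested were also lower, Cd3e by 0.86 and Cd8a by 3.13, as were 1 of 4 endothelial markers, Kdr, and 1 of 4 epithelial markers, Cldn4. The 8 lymphocyte markers had a summed linear level of 7.93 to 8.75 in BAPN fibroblasts and of 11.11 to 13.98 in vehicle fibroblasts, and their part in the lower ligand signals was not tested. The alpha interferon genes are near-identical to each other, so their probes may detect more than 1 of them, and the signal of Ifnb1 was well above background on none of the fibroblast arrays. Of the receptors and transducers 0 of 15 and of the sensors and induction pathway 0 of 15 passed in fibroblasts, and of the other interferon-stimulated genes 2 of 60 fell, Nlrc5 by 0.87 (adjusted p = 0.00648) and Slfn5 by 0.52 (adjusted p = 0.0375). Both calls were lost with the correction for spot position, with adjusted p = 0.121 for Nlrc5 and 0.058 for Slfn5. They were also lost with the replicate block, as were the calls of all features. In ATII cells 0 genes of these 4 lists passed the test for BAPN.

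Between the cell types in vehicle, 3 of 15 receptors and transducers were higher in ATII cells and 1 was lower, where 13.7% of all features were higher and 18.0% lower, so their share called was near that of all features. Ifnlr1, the receptor chain for type III interferons, which epithelia carry, had a mean of 0.43 ± 0.29 in vehicle ATII cells and -4.05 ± 0.55 in vehicle fibroblasts (SD, n = 4 each), a 22.2-fold difference (log2 4.47, SE 0.40). Socs1, a feedback inhibitor, rose by 0.54, the interferon gamma receptor chain Ifngr1 rose by 0.38, and Jak1 fell by 0.66. Of the sensors and induction pathway 1 of 15 was higher and 5 were lower, with Irf8, a factor of myeloid cells, at -2.88 (SE 0.37) and Cgas, the sensor of cytosolic DNA, at -0.91 (SE 0.14). Of the other interferon-stimulated genes 11 of 60 were higher and 20 lower. The chemokine Cxcl10 was 11.7-fold higher (log2 3.55, SE 0.68, adjusted p = 0.00115) and the interferon-inducible gene Nmi 4.20-fold higher, while Lgals9 was 5.98-fold lower. Of the 15 markers of macrophages and other leukocytes, ATII cells had 13 at lower levels and 2, Cd74 and Cd14, at higher levels, and their part in the lower calls was not tested.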

How the data were processed

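Each array held RNA of a single sample, labelled with 1 dye. The scanner files hold spot intensity with local background subtracted, as written by Agilent Feature Extraction 10.7.3.1 per the file headers, and the flags used here are also from these deposited files. The deposited series table holds log2 values; its columns share a median of 5.96 and nearly the same sorted values, as quantile normalization gives. It served as an alternative. Here the log2 processed signal minus each array's 75th percentile over non-control spots was used, without outlier spots. Spots of a probe were averaged, and the probe with the highest mean stood for a gene. Of the 55681 probes 24263 had no gene name, and each usable one counted as a feature of its own. Shares of all features are therefore not shares of named genes. Features flagged as well above background on 3 or more of the compared groups' arrays were tested with limma 3.58.1 (R 4.3.3) on all 15 arrays, with Benjamini-Hochberg adjustment over all features and a threshold of 0.05. On simulated data for the fibroblast BAPN comparison, with 32247 features, 66 of 100 genes changed by log2 1 were recovered. Of 100 changed by log2 2, 88 were recovered, and 10 unchanged features were called. The changed genes were drawn from features above background on all 15 arrays, with noise independent between genes. The interferon-stimulated genes varied more in fibroblasts, and together, so these shares do not carry over to them. All 33 genes are accounted for. Those past the threshold are named in full where 12 or fewer, otherwise the 6 largest rises and 6 largest falls without overlap, with the 4 dimmest and 4 brightest probes. Further genes are described by role. The genes and lists were chosen with earlier results of these data known.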

Additional observations from a re-analysis of the deposited data

Results flagged for a closer look

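The following 6 values stood apart from the other 3 arrays of their group, by a gap that exceeds Dixon's 95% critical value for 4 samples. All belonged to replicate 1 of an ATII group. In BAPN ATII cells, Bst2 was lowest in replicate 1 at 1.45, where the others were 1.74 to 1.77. Ddx58 was highest there at 2.18, where the others were 1.98 to 1.99, and Usp18 was highest at 0.94, where the others were 0.33 to 0.42. In vehicle ATII cells, Gbp3 was lowest in replicate 1 at -3.30, where the others were -2.65 to -2.56. Oasl1 was lowest there at 0.65, where the others were 1.67 to 1.79, and Oasl2 was lowest at -0.29, where the others were 0.49 to 0.56. Of 99 groups of 4 arrays examined, 6 were found in this way, and chance flags about 1 in 20 groups, or 4.95 of 99.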

How the results depend on the processing

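The BAPN comparison in ATII cells and the difference between cell types gave 0 calls among the interferon-stimulated genes in every alternative run, leave-one-out included (0 to 0). In fibroblasts the count with BAPN was 0, and 1 with the slide as a block, with the correction for spot position, and with every probe as a feature, where the gene was the second probe of Oas1a; leaving out an array gave 0 to 1. Rsad2 ran from -3.49 to -0.73 over its alternatives. Between cell types in vehicle, 20 genes passed, and 7 on slide 1 alone, a share near that of all features there, and 10 on slide 2 alone; leaving out an array gave 15 to 21. Dtx3l, Gbp2, Ifit2, Irf1, Oasl1 and Parp14 passed in every alternative that tested them. In BAPN, 16 genes passed, and 8 on slide 1 alone, again near the share of all features, and 5 on slide 2 alone, where each slide left 1 group with 1 array, assumed to vary like the others; leaving out an array gave 14 to 19, and Dtx3l, Ifit2, Irf1 and Oasl1 passed throughout, while Mx1 passed in the 13 alternatives that tested it and was not tested in 6. No called change reversed its sign. Fewer than 5 arrays in every group limit the precision, and probes near background, Rsad2 and Mx1 among them, give bounds. On no BAPN fibroblast array was Mx1 well above background, so its passes in BAPN show no stable size.

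Replicate numbers were not taken to pair the samples, since the labels do not say so. Same-numbered samples, each pair on one slide, had correlations of -0.05, 0.28 and 0.04 in fibroblasts and 0.41, -0.04 and -0.02 in ATII cells. Differently numbered samples of the same slide had lower ones, -0.40 to -0.33 in fibroblasts and -0.26 to -0.14 in ATII cells. Across slides they ran from -0.08 to 0.30 in fibroblasts and from -0.23 to 0.33 in ATII cells. Whether the numbers pair the samples was not tested. With the replicate number as a block, 19 genes passed between cell types in vehicle and 13 in BAPN, and 0 in each BAPN comparison. Over all features the block took the fibroblast BAPN count to 0, against 4454 without it.

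Single arrays decided some calls. In vehicle, Eif2ak2 was lost without ATII replicate 3 or fibroblast replicate 1, 2 or 4, Ifih1 without ATII replicate 1 or 3 or fibroblast replicate 3, Irf7 without ATII replicate 1 or fibroblast replicate 1 or 2, and Samd9l without ATII replicate 1, 2 or 3 or fibroblast replicate 3 or 4, at adjusted p of 0.0509 (Ifih1) to 0.101 (Samd9l). Without fibroblast vehicle replicate 3, Gbp3 (-1.24, adjusted p = 0.0336), Isg15 (-1.49, adjusted p = 0.0308) and Mx2 (-1.97, adjusted p = 0.0352) passed, and without replicate 4 Oas2 did (-0.93, adjusted p = 0.0277). In BAPN, Ifit3 was lost without ATII replicate 1 or 5 or any fibroblast replicate, Tap1 without ATII replicate 4 or 5 or fibroblast replicate 2 or 4, and Ifi35 without fibroblast replicate 2. Without fibroblast BAPN replicate 4, Bst2, Gbp3, Irf7, Irf9 and Isg15 passed (Isg15 -1.55, adjusted p = 0.0429), without replicate 2 Ifi44 did, and without replicate 1 Ifih1 did.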
